A study of Homo sapiens with 12 samples.

Results

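The difference of induction effects between 2 engineered leukaemia lines was measured by RNA sequencing: how a gene responded to doxycycline in cells carrying S222A mutant MEF2C, minus how it responded in cells carrying wild-type (WT) MEF2C. All 12 libraries of the series enter this contrast, 12 of 12, which is (S222A induced minus S222A uninduced) minus (WT induced minus WT uninduced) in 1 model with a mean per group. The host was OCI-AML2, a human acute myeloid leukaemia cell line. The 4 groups, of 3 libraries each, were S222A cells with doxycycline (S222A induced), S222A cells with vehicle (S222A uninduced), WT cells with doxycycline (WT induced) and WT cells with vehicle (WT uninduced). Treatment lasted 48 h in 3 ml of culture. The labels give the doxycycline as 600 ng, with no volume to which that amount refers. All cells came from single-cell clones, and how many clones stand for each construct is not given, so a difference between constructs and a difference between clones cannot be told apart. Cells without a construct that received doxycycline are not analysed here. Whether the 3 libraries of a group were grown as separate cultures is not labelled. The p-values therefore reflect how much these libraries varied, which may be technical.

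MEF2C is a DNA-binding transcription factor of the MADS-box family that acts in muscle, neurons and blood and is highly expressed in several kinds of acute leukaemia. Class IIa histone deacetylases bind it and hold its targets down, and kinases change its activity by phosphorylation. The S222A change replaces a serine, which can be phosphorylated, by an alanine, which cannot, and the series title ties MEF2C phosphorylation to chemotherapy resistance. The contrast therefore asks which genes answered the inducer differently in the line that carries the S222A construct.

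Library totals ran from 875710 to 13134791 counts, and 3 counts, the floor used here, corresponded to 0.228 to 3.43 CPM (counts scaled to library size), covering counting error only. In each group 1 library was the deepest (5412391 to 13134791 counts: S222A induced replicate 3, S222A uninduced replicate 1, WT induced replicate 1, WT uninduced replicate 2). These 4 stood apart on the first principal component of 11474 genes, at 33.5 to 44.4 against -51.3 to -2.16 for the other 8. On the third component S222A uninduced replicate 3 stood at 62.5 and all other libraries at -31.2 to 13.3. The leukaemia identity markers summed to 1443 to 1535 CPM in S222A induced, 1130 to 1238 CPM in S222A uninduced, 1204 to 1360 CPM in WT induced and 1152 to 1321 CPM in WT uninduced libraries. CEBPA and IL3RA, 2 of those 14 markers, were at 0 counts everywhere and CD34 had 2 counts in all libraries together. The pan-leucocyte gene PTPRC reached 514 to 755 CPM.

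MEF2C RNA itself gave no called difference. It stood at 920, 956 and 786 CPM in the S222A induced libraries, against 605, 701 and 802 CPM in the S222A uninduced libraries. WT cells had 674, 844 and 812 CPM when induced and 747, 645 and 817 CPM when uninduced. All 4 groups overlapped. The log2 difference was 0.26 ± 0.23 (SE; 95% interval -0.24 to 0.76; edgeR quasi-likelihood adjusted p = 0.949), so the 2 responses of total MEF2C RNA differed by at most 1.7-fold at the upper bound of that interval. Counts per gene symbol do not separate transgene from endogenous reads, and the groups are called induced by their treatment.

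Of 11474 genes tested, 9 were called on the difference at an adjusted p under 0.05, or 0.0784%. HIST1H2AC, NOG, DUSP4, SMIM14, RPS6KA5 and INSIG1 were 6 genes with a higher response in the S222A line (0.0523% of genes tested), and MS4A3, MARC1 and BMP8B were 3 with a lower one (0.0261%). In each of the 9 the S222A effect was the larger in size, as it was for 70.5% of all genes tested. None of the 9 was called on induction of the WT line, where 1 gene was called in all (0.00872%), while all 9 were called on induction of the S222A line, where 511 genes were (4.45%). These within-line contrasts are parts of the difference and lend it no separate support. At an unadjusted p under 0.05 stood 766 genes (6.68%), 417 with a positive difference (3.63%) and 349 with a negative one (3.04%). The median log2 difference over all genes tested was -0.0087.

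**Figure D1:**
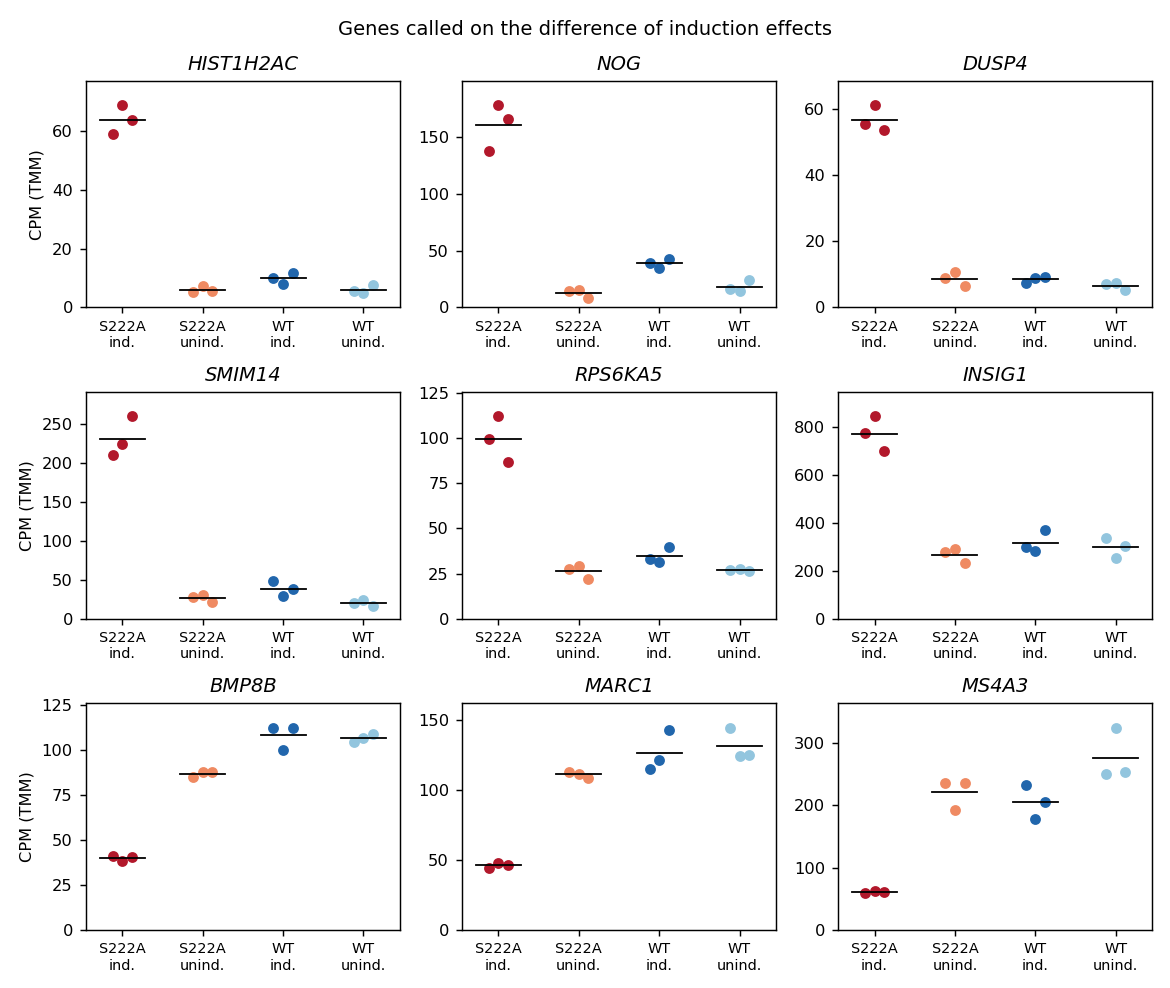
CPM with TMM factors (y axis, linear, from 0) of the 9 called genes in the 4 groups, S222A induced, S222A uninduced, WT induced and WT uninduced from left to right, with 1 point per library and a line at the mean of 3. In the 6 upper panels the S222A induced points lie above all other 9 libraries, and in MARC1, MS4A3 and BMP8B they lie below all other 9. Of all genes tested, 7.84% had these libraries above the other 9 and 6.21% below.

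The 9 differences kept their sign and much of their size in every alternative run, but each of the 9 calls was lost when some single libraries were left out, and no gene was called in 8 of the 12 such fits. Leaving out each of the 12 libraries in turn moved the log2 difference of HIST1H2AC between 2.45 and 2.80, of NOG between 2.20 and 2.61, and of BMP8B between -1.20 and -1.10. The adjusted p of BMP8B then lay between 0.0692 and 0.237, that of MARC1 between 0.0794 and 0.233, that of RPS6KA5 between 0.0762 and 0.233, and that of INSIG1 between 0.0699 and 0.248, so these 4 calls ended without any 1 of the 12 libraries. HIST1H2AC and NOG were each kept without WT uninduced replicate 2 (0.0264), WT uninduced replicate 3 (0.0356 and 0.0327), WT induced replicate 1 (0.0440) or S222A uninduced replicate 3 (0.0419), and lost without each of the other 8, up to 0.0935. DUSP4 was kept without WT uninduced replicate 3 (0.0327) or S222A uninduced replicate 3 (0.0419), SMIM14 without WT uninduced replicate 3 (0.0327) or WT induced replicate 1 (0.0286), and MS4A3 without WT uninduced replicate 2 (0.0481). Each was lost without any other library, with adjusted p up to 0.104 for DUSP4 and SMIM14 and 0.248 for MS4A3. With all 12 libraries, DESeq2 called the same 9 among 36 genes (0.314%) and limma-voom the same 9 among 10 genes (0.0872%).

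**Figure D2:**
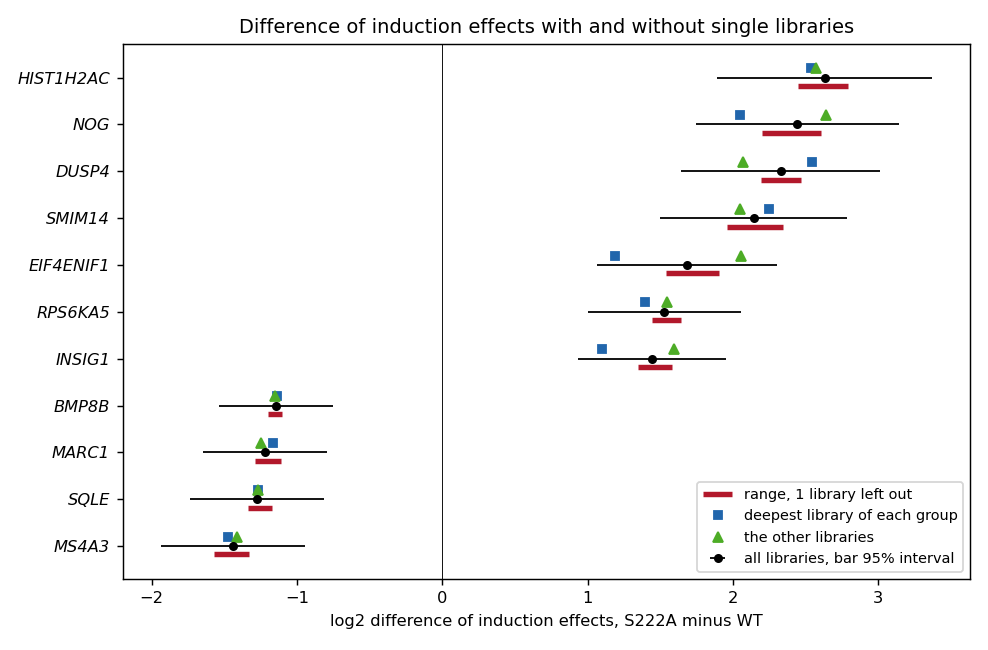
Log2 difference of induction effects, S222A minus WT (x axis), of the 9 called genes and of SQLE and EIF4ENIF1, which were just outside the threshold. Black points and bars are the fit on all libraries with its 95% interval, red bars the range with 1 library left out, blue squares the value within the deepest library of each group and green triangles the value in the other 8. No gene changes sign: NOG, for example, stands at 2.05 in the deepest libraries and at 2.64 in the others.

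A term for the deepest libraries raised the number of calls more than any other setting. With it in the model, 147 genes were called (1.28%), 89 with a higher response in the S222A line (0.776%) and 58 with a lower one (0.505%), and the median SE of the difference fell to 0.282 from 0.39 in the fit without it. All 9 called genes were among the 147. When the 4 deepest libraries were removed instead, 5 of the 9 calls ended: DUSP4 (adjusted p = 0.212), BMP8B (0.122), RPS6KA5 (0.096), MARC1 (0.0839) and HIST1H2AC (0.0727). In 147 of 147 genes called with the term, the S222A effect was again the larger in size. The term was chosen because those libraries were already known to stand apart. Genes called with the term but not without it are named as called with the term, and the words rise and fall are kept for genes called without it.

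**Figure D3:**
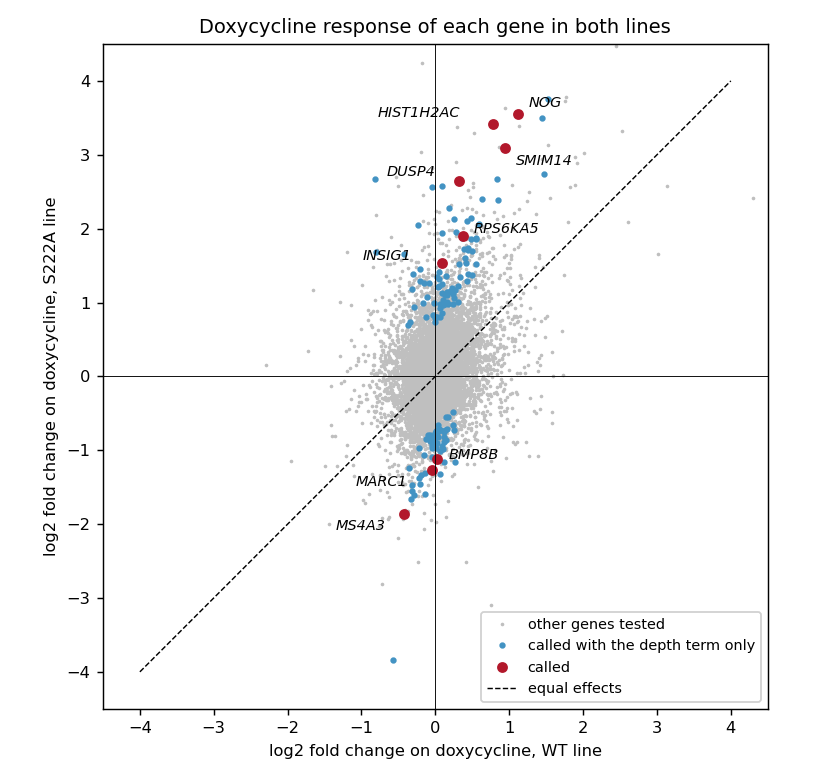
Log2 fold change on doxycycline in the S222A line (y axis) against that in the WT line (x axis) for all 11474 genes, with the 9 called genes in red and named, further genes called with the term for the deepest libraries in blue, and equal effects on the dashed line (4 genes lie outside the axes). The named genes leave the dashed line towards larger S222A effects: DUSP4 stands at 2.65 in the S222A line and 0.32 in the WT line, BMP8B at -1.12 and 0.03. Some also lie away from 0 in the WT line: NOG stands at 3.56 and 1.11, MS4A3 at -1.86 and -0.42.

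Promoter windows are shown for 3 called genes, HIST1H2AC with the largest positive difference of the 9, MS4A3 with the largest negative one, and INSIG1, a regulator of sterol synthesis, so that their proximal DNA can be read beside the values. RefSeq windows (GRCh38.p14) were found by symbol for 6 of the 9 called genes, and each covers the 250 bases before the start of the gene, read on the strand of the gene. The capitals mark motif matches on either strand. HIST1H2AC lies at chr6:26123922-26124171 (plus strand, RefSeq symbol H2AC6), INSIG1 at chr7:155297628-155297877 (plus strand) and MS4A3 at chr11:60056415-60056664 (plus strand).
HIST1H2AC: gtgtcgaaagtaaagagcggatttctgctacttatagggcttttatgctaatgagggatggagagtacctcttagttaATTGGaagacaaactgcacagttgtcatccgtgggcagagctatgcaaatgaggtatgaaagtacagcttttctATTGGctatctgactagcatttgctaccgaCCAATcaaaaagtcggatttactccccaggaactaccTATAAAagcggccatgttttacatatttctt
INSIG1: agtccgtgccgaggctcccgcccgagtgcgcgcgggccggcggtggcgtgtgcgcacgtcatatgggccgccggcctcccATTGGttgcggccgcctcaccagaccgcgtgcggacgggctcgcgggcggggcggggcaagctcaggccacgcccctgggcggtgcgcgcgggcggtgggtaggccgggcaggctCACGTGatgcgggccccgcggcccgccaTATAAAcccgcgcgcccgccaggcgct
MS4A3: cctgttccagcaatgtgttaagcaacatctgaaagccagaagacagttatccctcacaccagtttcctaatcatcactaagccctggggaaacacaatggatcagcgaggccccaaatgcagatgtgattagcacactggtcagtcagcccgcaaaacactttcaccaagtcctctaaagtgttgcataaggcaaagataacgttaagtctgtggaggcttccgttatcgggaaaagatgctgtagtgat

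The HIST1H2AC window, typical of a replication-dependent histone gene, held 1 TATA box and 3 CCAAT boxes in either orientation. INSIG1 had 1 TATA box, 1 CCAAT box and 1 E-box, and the MS4A3 window held none of the motifs searched. The motifs were the TATA box (TATAAA, in 10.7% of 35116 human windows of the same length), the CCAAT box (CCAAT, 32%), the E-box (CACGTG, 6.34%), the AP-1 site (TGANTCA, 6.57%) and a sterol response element (TCACNCCAC, 0.883%). The MEF2 consensus was searched as YTAWWWWTAR, where Y is C or T, W is A or T and R is A or G, and was in 2.8%. Neither the MEF2 consensus nor the sterol element matched in these 3 windows. That says only that these letters are not in these windows.

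DUSP4, a nuclear phosphatase that switches off MAP kinases, rose in the S222A line relative to the WT line. It stood at 55.4, 61.1 and 53.7 CPM in the S222A induced libraries, against 8.89, 10.7 and 6.57 CPM in the S222A uninduced libraries. Induced WT cells had 7.45, 8.97 and 9.21 CPM and uninduced WT cells 7.07, 7.53 and 5.31 CPM. The S222A induced libraries lay above all other 9, while the WT groups overlapped and the uninduced lines overlapped. The S222A fold was 6.26 and the WT fold 1.25, a 5.02-fold ratio of responses (95% interval 3.12 to 8.08; log2 difference 2.33 ± 0.32 SE, edgeR quasi-likelihood adjusted p = 0.0184). Counts behind the low values were few, down to 6 in S222A uninduced replicate 3 and 8 in WT induced replicate 2.

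DUSP4 was 1 of 11 tested members of the list of MAP kinase phosphatases and Sprouty feedback genes to be called, and the list had 3 members at an unadjusted p under 0.05, all positive. Its median log2 difference was 0.46, against -0.0087 over all genes. DUSP6, a cytoplasmic phosphatase of the ERK kinases, had 289, 325 and 378 CPM in S222A induced, 136, 109 and 97.5 CPM in S222A uninduced, 179, 126 and 149 CPM in WT induced and 105, 117 and 88.2 CPM in WT uninduced libraries. Its log2 difference of 0.97 ± 0.27 (SE) had an adjusted p of 0.383 and was called with the term for the deepest libraries (adjusted p = 0.00558). DUSP10, which acts on the stress kinases p38 and JNK, had a log2 difference of 1.11 ± 0.45 and was not called in either fit. DUSP5 and DUSP16 had negative log2 differences of -0.75 and -0.78 that were not called.

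RPS6KA5 encodes MSK1, a nuclear kinase that ERK and p38 activate and that phosphorylates CREB and histone H3. It stood at 99.8, 112 and 86.7 CPM in S222A induced libraries, against 27.4, 29.1 and 21.9 CPM in S222A uninduced ones. The WT line had 32.9, 31.4 and 39.5 CPM with doxycycline and 26.8, 27.6 and 26.6 CPM with vehicle. The WT groups did not overlap either, but at a 1.29-fold change against 3.73-fold in the S222A line. The ratio of responses was 2.89 (95% interval 2.01 to 4.15; log2 difference 1.53 ± 0.24 SE, adjusted p = 0.0438).

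RPS6KA5 was the 1 called gene among 15 tested members of the list of MARK, RSK and related kinases, whose median log2 difference was 0.24. RPS6KA3, which encodes the ERK-activated kinase RSK2, had a log2 difference of 0.93 ± 0.34 (adjusted p = 0.641). The microtubule affinity-regulating kinases MARK2, MARK3 and MARK4 had log2 differences of -0.14, -0.06 and 0.25, none of them called.

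NOG, the gene of noggin, a secreted protein that binds bone morphogenetic proteins and keeps them from their receptors, was induced in both lines by value and called on the difference. S222A induced libraries had 138, 178 and 166 CPM, against 14.7, 15.2 and 8.76 CPM in S222A uninduced libraries. WT induced libraries had 39.2, 34.8 and 42.9 CPM, against 16.2, 14.5 and 24.5 CPM in WT uninduced libraries. Neither pair of groups overlapped. The fold was 11.8 in the S222A line and 2.16 in the WT line (adjusted p = 0.807 for WT alone). Their ratio was 5.43 (95% interval 3.35 to 8.82; log2 difference 2.44 ± 0.32 SE, adjusted p = 0.0184).

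BMP8B, which encodes a ligand of the bone morphogenetic protein family, moved the other way. It stood at 41.2, 38.1 and 40.7 CPM in S222A induced libraries, against 85.1, 87.8 and 87.6 CPM in S222A uninduced ones, and at 112, 99.8 and 112 CPM in WT induced, against 104, 106 and 109 CPM in WT uninduced libraries. It fell 2.17-fold in the S222A line, and the WT groups overlapped. The uninduced lines did not overlap, with S222A lower. The log2 difference was -1.14 ± 0.18 (SE; 95% interval -1.54 to -0.75; adjusted p = 0.0438). BMP8B was not in a list, so among 25 tested members of the list of BMP and TGF-beta pathway genes NOG was the 1 called, with 3 members positive and none negative at an unadjusted p under 0.05.

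Among the receptors and signal carriers of that list, TGFBR2, the type II receptor of TGF-beta, had 22.9, 34.3 and 33.2 CPM in S222A induced, 10.7, 10.3 and 6.57 CPM in S222A uninduced, 9.65, 14.6 and 9.21 CPM in WT induced and 6.56, 8.31 and 7.35 CPM in WT uninduced libraries. Its log2 difference of 1.16 ± 0.38 was not called (adjusted p = 0.529). SMAD3, which carries the TGF-beta signal to the nucleus, had 1.03 ± 0.45. The antagonist follistatin (FST) had -1.37 and the coreceptor gene NEO1 -1.28, also not called. The list median was 0.25.

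HIST1H2AC, an H2A gene of the histone cluster on chromosome 6, had the largest difference among the 9 called genes. Its level was 59.2, 68.9 and 63.8 CPM in S222A induced libraries, against 5.29, 7.39 and 5.48 CPM in S222A uninduced ones. In WT cells it was 10.1, 7.85 and 11.8 CPM with doxycycline and 5.55, 5.02 and 7.76 CPM with vehicle. It rose 10.6-fold in the S222A line, against 1.72-fold in the WT line, and the ratio was 6.20 (95% interval 3.72 to 10.3; log2 difference 2.63 ± 0.34 SE, adjusted p = 0.0184). The lines did not differ when uninduced by more than their spread (log2 0.00 ± 0.26 SE, adjusted p = 1). Histone genes share reads with near-identical copies, so the count of this symbol is uncertain.

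Most other histone genes had negative values. Of 21 tested members of the histone list, HIST1H2AC was the 1 called, 14 had a negative log2 difference, and the median was -0.29. That median turned positive without S222A uninduced replicate 3 (0.35), WT uninduced replicate 2 (0.10), S222A induced replicate 3 (0.04) or WT induced replicate 2 (0.01) and with limma-voom (0.02), so it gives no direction for the family. HIST1H2BK, an H2B gene of the same cluster, had 512, 411 and 413 CPM in S222A induced, 151, 176 and 226 CPM in S222A uninduced, 117, 87.4 and 90.8 CPM in WT induced and 102, 93.5 and 53.9 CPM in WT uninduced libraries. It had a log2 difference of 1.03 ± 0.33 (adjusted p = 0.529). HIST2H2BE had 2.10 ± 0.76 (adjusted p = 0.622), and the replication-dependent H4 gene HIST1H4C had -0.61.

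INSIG1 holds the SCAP and SREBP complex in the endoplasmic reticulum when sterols are plentiful and so restrains sterol synthesis. It stood at 771, 842 and 699 CPM in S222A induced libraries, against 277, 290 and 230 CPM in S222A uninduced ones. WT libraries held 299, 280 and 370 CPM when induced and 336, 254 and 304 CPM when uninduced, and these groups overlapped. It rose 2.89-fold in the S222A line and had a fold of 1.06 in the WT line (log2 difference 1.44 ± 0.24 SE, 95% interval 0.93 to 1.96, adjusted p = 0.0458). The same test without robust estimation gave an adjusted p of 0.0509.

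SQLE, squalene epoxidase, an oxygen-requiring enzyme of cholesterol synthesis, lay just outside the threshold in the opposite direction. It had 34.6, 44.6 and 43.6 CPM in S222A induced libraries, against 99.1, 89.5 and 85.4 CPM in S222A uninduced ones. WT induced libraries had 119, 105 and 110 CPM and WT uninduced ones 104, 111 and 92.3 CPM. The S222A induced libraries lay below all other 9. The difference on the log2 scale was -1.28 ± 0.21 (SE; adjusted p = 0.0510), and it was called by limma-voom (0.0397), by DESeq2 (6.09e-05) and with the term for the deepest libraries (0.00049).

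Most other genes of sterol synthesis leaned the way of SQLE without being called. Of 24 tested members of the list, 19 had a negative log2 difference, 5 of them at an unadjusted p under 0.05 (SQLE, STARD4, HMGCS1, DHCR7 and MSMO1) against 1 positive (INSIG1). The list median was -0.46 for the difference, -0.54 for the S222A line and -0.02 for the WT line. HMGCS1, which makes the precursor HMG-CoA, had a log2 difference of -0.98, and MSMO1, a later demethylating enzyme, -0.85. Of the regulators, SREBF1 had 0.28, SREBF2 0.16, SCAP 0.11 and INSIG2 -0.13.

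**Figure D4:**
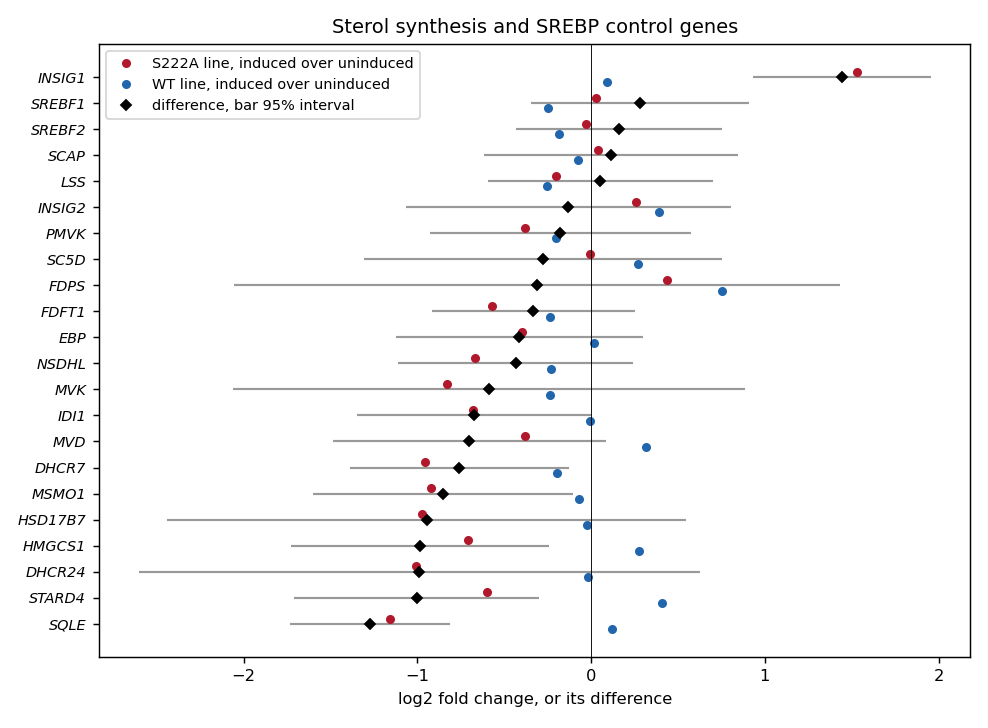
Log2 fold change on doxycycline in the S222A line (red) and in the WT line (blue), and their difference with its 95% interval (black, grey bar), on the x axis for 22 of the 24 tested genes of sterol synthesis and SREBP control on the y axis. INSIG1 at the top stands at 1.44, SQLE at the bottom at -1.28, 17 of the 22 differences are below 0, and 16 of the 22 bars cross 0.

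SMIM14, a small membrane protein of the endoplasmic reticulum, rose strongly in the S222A line relative to the WT line. It had 210, 224 and 260 CPM in S222A induced libraries, against 27.8, 30.4 and 21.9 CPM in S222A uninduced ones. WT cells had 47.7, 29.2 and 37.4 CPM with doxycycline, against 19.7, 24.3 and 16.3 CPM with vehicle, without overlap. The folds were 8.49 in the S222A line and 1.92 in the WT line, with a log2 difference of 2.14 ± 0.30 (SE; 95% interval 1.5 to 2.78; adjusted p = 0.0184).

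MARC1, an outer mitochondrial membrane enzyme that reduces N-oxygenated compounds (RefSeq symbol MTARC1), fell. It had 44.0, 47.7 and 46.4 CPM in S222A induced libraries, against 113, 111 and 108 CPM in S222A uninduced ones, and 115, 121 and 143 CPM in WT induced, against 144, 124 and 125 CPM in WT uninduced libraries. The WT groups overlapped, and the uninduced S222A libraries lay below the uninduced WT ones. The log2 difference was -1.22 ± 0.20 (SE; 95% interval -1.64 to -0.79; adjusted p = 0.0458). With no filter on low counts the calls of MARC1 and BMP8B ended (0.101 and 0.209).

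EIF4ENIF1, the carrier that takes the cap-binding protein eIF4E into the nucleus, was the other gene just outside the threshold. It had 89.7, 80.9 and 80.7 CPM in S222A induced, 25.6, 21.3 and 14.2 CPM in S222A uninduced, 30.3, 28.03 and 22.6 CPM in WT induced and 20.2, 22.0 and 24.5 CPM in WT uninduced libraries. For the responses, the log2 difference was 1.69 ± 0.29 (SE; adjusted p = 0.0546).

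MS4A3, a four-transmembrane protein of granulocyte and monocyte progenitors, had the largest called fall. It stood at 59.6, 62.4 and 60.7 CPM in S222A induced libraries, against 236, 193 and 235 CPM in S222A uninduced ones. With the WT construct it stood at 233, 178 and 205 CPM in induced libraries, against 250, 325 and 254 CPM in uninduced ones. It fell 3.64-fold in the S222A line and was 1.34-fold lower by value in WT induced cells, whose groups did not overlap. The log2 difference was -1.44 ± 0.23 (SE; 95% interval -1.93 to -0.95; adjusted p = 0.0438).

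Of 12 tested granulocyte genes MS4A3 was the 1 called, and 5 were negative and none positive at an unadjusted p under 0.05. The other 11 of the 23 members, ELANE and LTF among them, did not pass the filter on low counts. CTSG, cathepsin G, a serine protease of azurophil granules, had 169, 198 and 219 CPM in S222A induced libraries, against 733, 561 and 560 CPM in S222A uninduced ones. WT induced libraries had 318, 290 and 234 CPM and WT uninduced ones 301, 391 and 371 CPM. The S222A induced libraries were again below all other 9, and the uninduced lines did not overlap, with S222A higher. Between the 2 responses the log2 difference was -1.33 ± 0.25 (SE; adjusted p = 0.110), called by DESeq2 (0.00069) and with the term for the deepest libraries (0.000277).

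AZU1, azurocidin of the same granules, had a log2 difference of -1.16 ± 0.38 (adjusted p = 0.561) and was called with the term for the deepest libraries (0.0101). It had 174, 148 and 139 CPM in S222A induced and 280, 517 and 481 CPM in S222A uninduced libraries. WT libraries had 116, 225 and 178 CPM when induced and 208, 173 and 260 CPM when uninduced. The induced lines overlapped, while the uninduced lines did not, with S222A higher. MPO and PRTN3, further azurophil genes, were called on induction of the S222A line and had log2 folds of -1.71 and -1.68 there and of -0.96 and -0.98 in the WT line, a difference of -0.76 and -0.70 that was not called. The list median was -0.71 for the difference, -1.03 for the S222A line and -0.32 for the WT line. In bulk RNA, fewer cells of a kind and less RNA per cell cannot be told apart. Markers of other cells moved beside these genes. The summed CPM of 33 lymphoid genes, 4 of them at 0 everywhere, was 249 to 271 in S222A induced, 79.4 to 133 in S222A uninduced, 94.6 to 128 in WT induced and 103 to 119 in WT uninduced libraries. The 13 markers of non-haematopoietic cells, 4 of them at 0 everywhere and VIM alone passing the filter, summed to 727 to 932 CPM in S222A induced, 205 to 271 CPM in S222A uninduced, 312 to 502 CPM in WT induced and 195 to 378 CPM in WT uninduced libraries. Erythroid and megakaryocyte genes, 11 of 28 of them at 0 everywhere including GATA1 and HBB, summed to 541 to 611 CPM in S222A induced, 626 to 638 CPM in S222A uninduced, 376 to 438 CPM in WT induced and 435 to 488 CPM in WT uninduced libraries. Nearly all of that sum was TFRC, the transferrin receptor of dividing cells, at 368 to 619 CPM over the 12 libraries, and EPOR, the next highest member, reached 7.75 CPM at most. The part of these markers in the results was not tested.

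Monocyte genes gave no call. Of 9 tested members, S100A9, which forms calprotectin with S100A8, had 53.3, 71.4 and 41.9 CPM in S222A induced, 120, 135 and 209 CPM in S222A uninduced, 37.1, 42.6 and 31.6 CPM in WT induced and 46.9, 63.2 and 37.2 CPM in WT uninduced libraries. It had a log2 difference of -1.03 ± 0.38 (adjusted p = 0.641). LYZ had -1.37 and S100A8 -0.46, and the list median was -0.46, with 2 negative and no positive members at an unadjusted p under 0.05. DESeq2 and limma-voom called none of the 9.

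Among 19 tested myeloid transcription factors, RUNX2, a runt-domain factor best known from bone, came nearest to a call. It had 344, 386 and 354 CPM in S222A induced libraries, against 156, 172 and 124 CPM in S222A uninduced ones, and 171, 174 and 185 CPM in WT induced, against 156, 159 and 184 CPM in WT uninduced libraries. The S222A induced libraries were above all other 9. The difference on the log2 scale was 1.17 ± 0.21 (SE; adjusted p = 0.0864), called by DESeq2 (6.09e-05) and with the term for the deepest libraries (0.00125). CEBPD, a leucine-zipper factor of myeloid maturation and inflammation, had -0.71 ± 0.26, and MITF, the factor of mast cells and pigment cells, -1.39 ± 0.57, neither of them called. Of the 19, 1 was positive and 2 were negative at an unadjusted p under 0.05, and the list median was 0.02.

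Stem cell programmes leaned upwards by value. Of 10 tested genes of the HOXA cluster list, which holds the homeobox genes and cofactors that keep leukaemia cells immature, 8 had a positive log2 difference, 3 of them at an unadjusted p under 0.05, and none was called by edgeR, DESeq2 or limma-voom. MEIS1, a cofactor of HOXA9, had 82.8, 89.4 and 84.3 CPM in S222A induced, 56.1, 49.7 and 40.5 CPM in S222A uninduced, 55.8, 70.6 and 62.1 CPM in WT induced and 55.5, 59.1 and 68.6 CPM in WT uninduced libraries. For the responses, the log2 difference was 0.76 ± 0.23 (adjusted p = 0.493). HOXA9 had 0.69 ± 0.26 and HOXA5 0.80 ± 0.31, and the list median was 0.57.

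Of 10 tested genes of the leukaemia stemness score list, none was called by edgeR or limma-voom and 4 were positive at an unadjusted p under 0.05. SPINK2, a serine protease inhibitor of blood stem cells, had 23.6, 23.4 and 24.1 CPM in S222A induced libraries, against 1.56, 2.87 and 0 CPM in S222A uninduced ones. WT cells had 16.2, 14.6 and 13.2 CPM when induced and 5.55, 4.64 and 5.31 CPM when uninduced, so SPINK2 was higher with doxycycline in both lines without overlap. The uninduced lines did not overlap, with S222A lower (log2 -1.54 ± 0.40) and 1 of its libraries at 0 CPM. The induced lines differed by a log2 value of 0.69 ± 0.28 (adjusted p = 0.179). Between the 2 responses the log2 difference was 2.22 ± 0.49 (adjusted p = 0.213), called by DESeq2 (0.0169) and with the term for the deepest libraries (0.0164). MMRN1, the platelet and endothelial protein multimerin, had 0.86 ± 0.23 (adjusted p = 0.367) and was called with that term (0.0297). The list median was 0.62.

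Lymphoid genes had 6 tested members, all with a positive log2 difference and none called by edgeR, DESeq2 or limma-voom, with 2 positive at an unadjusted p under 0.05. CD69, an early activation antigen of lymphocytes, had 161, 167 and 128 CPM in S222A induced, 86.3, 88.2 and 50.4 CPM in S222A uninduced, 74.7, 78.5 and 104 CPM in WT induced and 93.4, 70.5 and 103 CPM in WT uninduced libraries (log2 difference 1.04 ± 0.32, adjusted p = 0.503). CXCR3, a chemokine receptor of T cells, had 17.3, 22.5 and 17.8 CPM in S222A induced libraries, against 0.84, 2.87 and 4.38 CPM in S222A uninduced, 2.05, 0 and 0.79 CPM in WT induced and 0.5, 0.97 and 1.23 CPM in WT uninduced libraries. It had a log2 difference of 2.78 ± 0.95 (adjusted p = 0.590). The list median was 1.32. Only 6 of 33 lymphoid genes passed the filter on low counts. A gene such as CXCR3, high in the S222A induced libraries alone, could pass through that group. The shared sign and the median are therefore partly set by the filter, and nothing is read from them.

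RGS proteins shorten signals from G protein-coupled receptors, and chemokine receptors are such receptors. Of 17 tested members of that list, 5 were positive and 2 negative at an unadjusted p under 0.05, and none was called by edgeR or limma-voom. CXCR3, with the largest log2 difference of the list (2.78), is among the 5 positive ones. As stated above, it could pass the filter through the S222A induced libraries alone, so nothing is read from that count. RGS1, which is also on the list of reported MEF2 targets, had 89.4, 96.8 and 128 CPM in S222A induced libraries, against 10.9, 7.80 and 7.67 CPM in S222A uninduced ones. WT induced libraries had 17.3, 11.2 and 10.5 CPM, against 4.54, 7.15 and 2.04 CPM in WT uninduced libraries. The difference on the log2 scale was 2.05 ± 0.48 (SE; adjusted p = 0.306), called by DESeq2 (0.0413) and with the term for the deepest libraries (0.000995).

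The 2 negative members were chemokine receptors. CCR2, the monocyte receptor of CCL2, had 18.4, 15.6 and 23.4 CPM in S222A induced, 66.9, 51.7 and 54.8 CPM in S222A uninduced, 65.8, 30.3 and 38.4 CPM in WT induced and 45.4, 73.2 and 33.5 CPM in WT uninduced libraries. CXCR4, the receptor that keeps blood stem cells in the marrow, had 112, 132 and 153 CPM in S222A induced, 300, 233 and 241 CPM in S222A uninduced, 270, 164 and 196 CPM in WT induced and 221, 264 and 167 CPM in WT uninduced libraries. Their log2 differences of -1.45 ± 0.44 and -0.92 ± 0.31 (adjusted p = 0.503 and 0.579) were called with the term for the deepest libraries (0.00211 and 0.0125). RASD1, a dexamethasone-induced Ras-like protein, had a log2 difference of 2.25 ± 0.64, and its value of 2.19 CPM in S222A uninduced replicate 3 stood below the 28.4 and 25.9 CPM of the other S222A uninduced libraries.

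Of 12 tested genes of the list of reported MEF2 targets, none was called by edgeR or limma-voom, 5 were positive at an unadjusted p under 0.05 (RGS1, CD82, DUSP6, HDAC9 and BCL6) and none was negative. The median log2 difference was 0.35. CD82, a tetraspanin that restrains cell migration, had 122, 112 and 122 CPM in S222A induced, 44.5, 45.6 and 49.3 CPM in S222A uninduced, 13.7, 13.5 and 15.3 CPM in WT induced and 11.1, 9.46 and 11.03 CPM in WT uninduced libraries. The 4 groups did not overlap, and the S222A line stood above the WT line in both states. For the responses, the log2 difference was 0.91 ± 0.22 (adjusted p = 0.321). EGR1 and JUN, growth factor-responsive factors of that list, had -0.25 and -0.41.

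The MEF2 partners tested gave no call by edgeR, DESeq2 or limma-voom. HDAC9, a class IIa deacetylase that MEF2 factors also activate, had 62.7, 61.3 and 54.4 CPM in S222A induced, 27.0, 28.3 and 42.7 CPM in S222A uninduced, 42.4, 48.2 and 46.8 CPM in WT induced and 36.3, 38.8 and 39.2 CPM in WT uninduced libraries. The S222A induced libraries were above all other 9, and the log2 difference was 0.66 ± 0.26 (adjusted p = 0.680; the 1 of 7 at an unadjusted p under 0.05). HDAC5 had 0.68, HDAC4 -0.37, HDAC7 -0.21, MEF2D -0.14 and MEF2A 0.06, with SEs of 0.48 to 0.68. The signs of MEF2A, MEF2D and HDAC7 changed when single libraries were left out.

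Adhesion genes had no call among 23 tested integrins and tetraspanins by edgeR, DESeq2 or limma-voom, with 5 positive and none negative at an unadjusted p under 0.05. ITGA6, the laminin-binding integrin alpha 6, had 17.0, 15.2 and 15.9 CPM in S222A induced, 3.48, 2.87 and 3.29 CPM in S222A uninduced, 3.80, 2.24 and 3.16 CPM in WT induced and 3.53, 2.32 and 3.27 CPM in WT uninduced libraries. Between the 2 responses the log2 difference was 2.10 ± 0.43 (adjusted p = 0.145), called with the term for the deepest libraries (0.0359), as was ITGAL, an integrin of leucocyte adhesion, with 0.81 ± 0.29 (0.0229). CD44, the hyaluronan receptor, had 461, 478 and 453 CPM in S222A induced, 257, 269 and 275 CPM in S222A uninduced, 312, 332 and 352 CPM in WT induced and 339, 300 and 317 CPM in WT uninduced libraries. It had a log2 difference of 0.74 ± 0.18 (adjusted p = 0.321), called by DESeq2 (0.00244) and with that term (0.0152). VIM, the intermediate filament vimentin, had 1.30 ± 0.34 (adjusted p = 0.335) and was called with the term (0.00179).

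**Figure D5:**
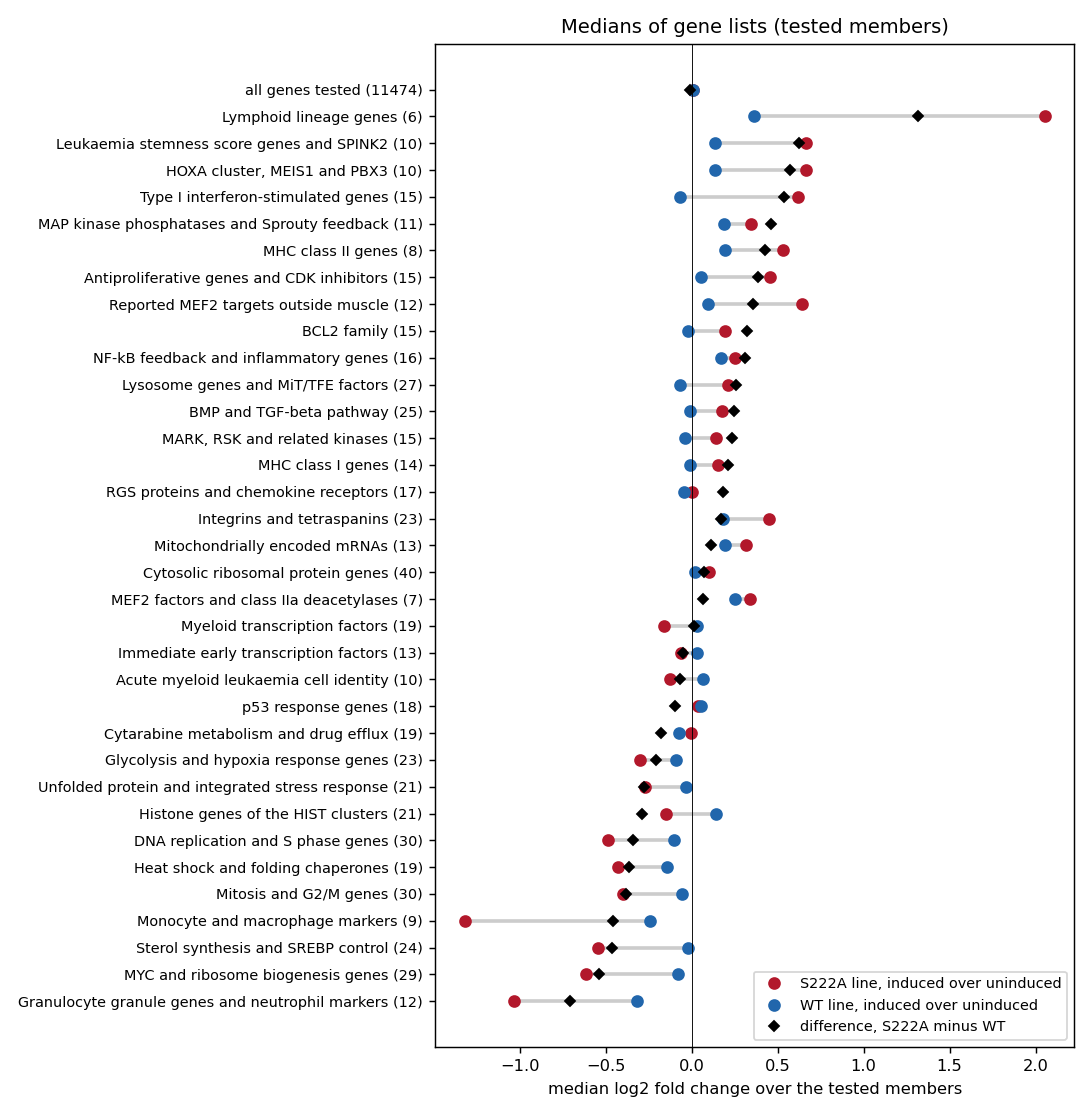
Median log2 fold change over the tested members (x axis) of each gene list with at least 5 of them (y axis, number tested in brackets), for the S222A line (red), the WT line (blue) and their difference (black diamonds), with all genes tested in the top line. The difference is lowest for granulocyte genes (-0.71) and for MYC and ribosome biogenesis genes (-0.54) and highest for the 6 lymphoid genes (1.32). That last value is partly set by the filter on low counts, which kept 6 of 33 lymphoid genes. Medians were not tested.

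All 29 tested members of the MYC and ribosome biogenesis list had a negative log2 difference, where 50.9% of all genes did, and 8 were at an unadjusted p under 0.05, but none was called by edgeR, DESeq2 or limma-voom. The median was -0.54, at -0.61 in the S222A line and -0.08 in the WT line, and it was -0.56 within the deepest libraries and -0.54 in the others. NOP16, a nucleolar protein, had 100, 108 and 121 CPM in S222A induced, 212, 196 and 184 CPM in S222A uninduced, 210, 174 and 165 CPM in WT induced and 198, 248 and 153 CPM in WT uninduced libraries. Its log2 difference of -0.72 ± 0.26 (adjusted p = 0.622) was called with the term for the deepest libraries (0.0472), as were RRS1 and WDR12, assembly factors of the large ribosomal subunit, and the histone chaperone NPM3, at -0.84, -0.70 and -0.85. DKC1, the pseudouridine synthase dyskerin, had -0.59 ± 0.22, and MYC itself -0.68 (unadjusted p = 0.22).

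All 30 tested genes of DNA replication had a negative log2 difference, as did 28 of 30 mitosis genes, with medians of -0.34 and -0.38. Of all genes tested, 50.9% were negative. In each of the 2 lists 2 were at an unadjusted p under 0.05 and none was called by edgeR, DESeq2 or limma-voom. Those 2 make 6.67% of each list, near the 6.68% of all genes tested. RFC3, a subunit of the clamp loader at replication forks, had 101, 94.1 and 82.6 CPM in S222A induced, 138, 178 and 207 CPM in S222A uninduced, 121, 147 and 154 CPM in WT induced and 147, 129 and 150 CPM in WT uninduced libraries (log2 difference -0.89 ± 0.25, adjusted p = 0.395), called with the term for the deepest libraries (0.0098). MCM3, a subunit of the replicative helicase, had -0.52 ± 0.20, TPX2, a spindle assembly factor, -0.58 ± 0.24, and TOP2A, topoisomerase II alpha, -0.55 ± 0.24.

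Antiproliferative genes and CDK inhibitors had a median of 0.38 over 15 tested, with 3 positive and none negative at an unadjusted p under 0.05 and no call by edgeR, DESeq2 or limma-voom. BTG2, which slows the cell cycle and is a p53 target, was the 1 gene called on WT induction, close to the threshold (adjusted p = 0.0498). It was also called on S222A induction (adjusted p = 5.99e-06), with higher values under doxycycline in both lines. It had 138, 167 and 129 CPM in S222A induced, 19.8, 25.5 and 19.7 CPM in S222A uninduced, 21.6, 17.9 and 20.5 CPM in WT induced and 7.07, 7.53 and 7.35 CPM in WT uninduced libraries. The difference on the log2 scale was 1.26 ± 0.26 (adjusted p = 0.157), called with the term for the deepest libraries (0.0229). CDKN2C and CDKN1B, inhibitors of the G1 cyclin-dependent kinases, had 0.57 ± 0.22 and 0.54 ± 0.25. The 18 tested p53 response genes had a median of -0.10, with 2 positive and 1 negative at an unadjusted p under 0.05.

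Of 19 tested heat shock and folding chaperones, 16 had a negative log2 difference (median -0.36), 4 of them at an unadjusted p under 0.05, and none was called by edgeR, DESeq2 or limma-voom. HSPD1, the mitochondrial chaperonin, had 511, 543 and 443 CPM in S222A induced, 739, 740 and 1028 CPM in S222A uninduced, 651, 830 and 822 CPM in WT induced and 849, 636 and 808 CPM in WT uninduced libraries. Its log2 difference of -0.75 ± 0.26 (adjusted p = 0.597) was called with the term for the deepest libraries (0.0269). On the list of the unfolded protein and integrated stress responses (21 tested, 15 of them negative, median -0.27, with 1 positive and 2 negative at an unadjusted p under 0.05), VLDLR, a lipoprotein receptor that ATF4 can activate, had 122, 107 and 102 CPM in S222A induced, 37.1, 45.2 and 50.4 CPM in S222A uninduced, 35.4, 49.3 and 48.7 CPM in WT induced and 49.96, 39.02 and 41.3 CPM in WT uninduced libraries. For the responses, the log2 difference was 1.32 ± 0.26 (adjusted p = 0.141), called by DESeq2 (0.00556) and with the term (0.000763). TRIB3, a pseudokinase of the same response, had -0.88 ± 0.30 and was called with the term (0.0472).

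Inflammatory, interferon and death regulators had no call by edgeR, DESeq2 or limma-voom. At an unadjusted p under 0.05, 3 of 16 NF-kB and inflammatory genes were positive, as were 2 of 15 interferon-stimulated genes, and the BCL2 family had 1 positive and 1 negative of 15. CFLAR, which blocks caspase 8, had a log2 difference of 0.69 ± 0.21, NFKBIA, the inhibitor of NF-kB, 0.99 ± 0.41, and BIRC3 1.30 ± 0.58. IRF7, a driver of interferon genes, had 11.8, 14.9 and 11.96 CPM in S222A induced, 3.24, 5.34 and 5.48 CPM in S222A uninduced, 4.09, 4.48 and 3.16 CPM in WT induced and 4.04, 3.28 and 5.31 CPM in WT uninduced libraries (1.68 ± 0.47, adjusted p = 0.391). BMF, a death-promoting BCL2 relative, had 1.06 ± 0.30, and PMAIP1, another one, -0.60 ± 0.28. The median was 0.31 for the NF-kB list, 0.54 for the interferon list and 0.32 for the BCL2 family.

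Genes of drug handling, antigen display and lysosomes gave no call by edgeR or limma-voom. MVP, the major vault protein, had 18.01, 19.6 and 14.9 CPM in S222A induced, 4.68, 4.51 and 2.19 CPM in S222A uninduced, 3.80, 2.24 and 4.21 CPM in WT induced and 5.55, 4.44 and 3.27 CPM in WT uninduced libraries. Between the 2 responses the log2 difference was 2.28 ± 0.45 (adjusted p = 0.141), called by DESeq2 (0.0413) and with the term for the deepest libraries (0.0181). CDA, cytidine deaminase, which inactivates cytarabine, had 2.08, 3.79 and 4.22 CPM in S222A induced, 11.5, 14.0 and 16.4 CPM in S222A uninduced, 13.3, 12.3 and 12.1 CPM in WT induced and 21.7, 20.9 and 20.0 CPM in WT uninduced libraries (-1.19 ± 0.36, adjusted p = 0.471). The list of cytarabine metabolism and drug efflux had a median of -0.18 over 19, with 1 member positive and 1 negative at an unadjusted p under 0.05. HLA-E, a non-classical class I molecule read by natural killer cells, had 0.79 ± 0.21 (adjusted p = 0.340) and was called with the term (0.0117), and NLRC5, the activator of class I genes, had -0.71 ± 0.27. The MHC class I list had a median of 0.21 over 14 tested, with 2 positive and 1 negative at that level. CTSB, a lysosomal protease, had 0.85 ± 0.22 (adjusted p = 0.340) and was called with the term (0.0163). The lysosome list had a median of 0.26 over 27 tested, with 3 positive and 1 negative.

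The remaining lists stayed near 0 or rested on few genes. No member was called by edgeR, DESeq2 or limma-voom among 40 cytosolic ribosomal protein genes (median 0.07), 13 mitochondrially encoded mRNAs (0.11), 13 immediate early factors (-0.05), 8 MHC class II genes (0.43) and 4 erythroid and megakaryocyte genes (0.17), and none of these reached an unadjusted p under 0.05. The 23 glycolysis and hypoxia genes had a median of -0.20 and 2 negative members at that level, GAPDH and LDHA, with no call by the 3 tools. These are 8.70% of that list, against 6.68% of all genes tested. GAPDH has many processed copies in the genome, so its count of 20.1 to 56.7 CPM is uncertain.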

How the data were processed

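Gene expression was measured by RNA sequencing of 12 libraries in 4 groups of 3, prepared, per the labels' protocols, with TruSeq RNA reagents. The authors deposited 1 table of raw counts, whole-number counts of reads per gene symbol with no normalization. The submitters' processing notes name STAR 2.4, HTSeq 0.6.1, DESeq2 and the hg19 build. For the annotation and strandedness, the setting is not given in the sources used here, so reads of overlapping or antisense genes cannot be told apart. Columns were matched by their header names, which are the labels' descriptions (MEF2Cun and MEF2Cind for the S222A line), and 0 columns were of other samples. The header lacks 1 tab: a space stands between its last names, MEF2Cind2 and MEF2Cind3, so these S222A induced columns were assigned by reading that pair of names in their written order.

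The table held 55765 symbols, 24318 of them at 0 everywhere. The default filterByExpr rule of edgeR 4.0.16 (minimum count 10) kept 11474 genes with 99.5% of the counts. With TMM factors, 1 mean per group and 8 residual degrees of freedom, the contrast was tested in R 4.3.3 with robust quasi-likelihood F tests. Genes were called at a Benjamini-Hochberg adjusted p under 0.05, taken over the 11474 genes. The biological coefficient of variation was 24.8%. Errors of log2 values are SEs and levels are CPM with TMM factors, with marker sums taken over all genes of the table, tested or not.

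Adjusted p-values come from this edgeR test where no other tool is given. The same fit gave each line's own response. Libraries of a group differed by more than sampling noise (chi-square per degree of freedom 2.64 to 35.2). Replicate numbers showed no consistent pairing: same-number deviations correlated at -0.53 to 0.64 over 18 pairs, 6 of them above 0.1. Deviations of the deepest libraries correlated across groups at 0.61 to 0.76, whatever their numbers. The same-number values hold that pattern too, so they cannot decide whether numbers mark shared cultures or batches.

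Genes named are the MEF2 and class IIa deacetylase members, up to 15 called genes in each direction, every called list member, the members of each list with the smallest p up to 3 in all, and 2 genes on each side of the threshold. Members outside this rule were chosen after their values were seen. The 36 lists held 777 genes, of which 571 were tested. The comparison, members and lists were chosen with earlier results of these data known. Lists are described by counts and medians, with no set test. Alternatives were RLE and upper quartile factors, other filters, DESeq2 1.42.0, voom in limma 3.58.1, no robust estimation, a replicate block, a term for or removal of the deepest library of each group, each library left out in turn, and an adjusted p under 0.1. Values within the deepest libraries were added after seeing the data. Scripts were tested on simulated data. Some list members are not reported here by name.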

Additional observations from a re-analysis of the deposited data

Results flagged for a closer look

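The test of the difference between the 2 lines' responses to doxycycline, the interaction term of the edgeR fit, set 9 genes apart. Their log2 differences, S222A minus WT, were 2.63 for HIST1H2AC, 2.44 for NOG, 2.33 for DUSP4, 2.14 for SMIM14, 1.53 for RPS6KA5 and 1.44 for INSIG1. They were -1.14 for BMP8B, -1.22 for MARC1 and -1.44 for MS4A3. Each of the 9 had its 3 S222A induced libraries outside the range of the other 9 libraries, as had 14% of all genes tested, and since the 9 were chosen on these libraries nothing is read from it.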

How the results depend on the processing

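The 9 genes called (6 higher, 3 lower) became 22 with no filter beyond 1 count (19 higher), 36 with DESeq2 (25 higher, 11 lower), 147 with a term for the deepest libraries (89 higher, 58 lower) and 15 at an adjusted p under 0.1 (10 higher, 5 lower). At a minimum count of 30, 5 genes were lower among 13. With single libraries left out, 0 to 4 genes were called, 0 to 4 higher and 0 to 1 lower, and at an unadjusted p under 0.05 stood 546 to 874 genes. The count was 0 without WT uninduced replicate 1, WT induced replicates 2 or 3, S222A uninduced replicates 1 or 2, or any S222A induced replicate. All called genes were kept by RLE factors, upper quartile factors, a minimum count of 30, DESeq2, limma-voom and the depth term. Without the 4 deepest libraries 9 genes were called, 4 of them the same (INSIG1, MS4A3, NOG and SMIM14).

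A replicate block, in a fit that takes the numbers as pairs, called 0 genes, 0 higher and 0 lower, with 569 at an unadjusted p under 0.05. By correlation, 0 of 12 libraries matched best with its own number in every other group. The shared deviation of the deepest libraries enters these correlations, so they cannot decide whether the numbers mark pairs. Among the 108 genes named by rule, signs turned for 6, none of them called. With single libraries left out, the log2 difference of MEF2A ran from -0.28 to 0.44, of MEF2D from -0.46 to 0.17, of HDAC7 from -0.78 to 0.53, of CLEC4D from -2.90 to 0.33, of MT-CO3 from -0.00148 to 0.48 and of KIT from -0.54 to 2.35. Without the deepest libraries MEF2D stood at 0.0218 and HDAC7 at 0.0216, and with the block HDAC7 stood at 0.0568. The cause was not tested.

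The median SE of 0.39 limits what the contrast shows: a gene that was not called may still differ between lines. S222A uninduced replicate 3 (930960 counts) and WT induced replicate 2 (875710 counts) are the shallowest libraries, and HIST1H2AC had 5 and 7 counts in them.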

Other observations

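Genes outside the lists were also called with the term for the deepest libraries, and the ones below were chosen after their values were seen. None was called without that term by edgeR. Their log2 differences with it were -1.15 for FADS1, a desaturase of polyunsaturated fatty acids, -0.93 for SCD, the stearoyl-CoA desaturase, -0.84 for ACACA, which makes malonyl-CoA for fatty acid synthesis, -1.17 for LPL, lipoprotein lipase, and 1.35 for LPIN1, a phosphatidate phosphatase. FADS1 averaged 38.9 ± 7.92 CPM in S222A induced, 96.1 ± 19.5 CPM in S222A uninduced, 99.5 ± 19.5 CPM in WT induced and 110 ± 12.6 CPM in WT uninduced libraries (SD, n = 3). LPL averaged 37.8 ± 7.24 CPM in S222A induced, 95.4 ± 8.21 CPM in S222A uninduced, 42.1 ± 3.19 CPM in WT induced and 48.5 ± 8.18 CPM in WT uninduced libraries.

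Other genes of that fit were PLXNC1, a semaphorin receptor of leucocytes (1.68), ZFP36L1, which degrades AU-rich mRNAs (1.69), TXNIP, a thioredoxin-binding arrestin (1.39), PPP1R15A, a phosphatase subunit of the stress response (1.28), MNDA, a nuclear antigen of myeloid cells (-1.26), and IFT57, a component of intraflagellar transport (-1.32). TXNIP averaged 408 ± 47.5 CPM in S222A induced, 112 ± 13.01 CPM in S222A uninduced, 152 ± 31.4 CPM in WT induced and 110 ± 18.1 CPM in WT uninduced libraries (SD, n = 3). DDX21, a nucleolar helicase (-0.79), averaged 673 ± 62.9 CPM in S222A induced, 1144 ± 113 CPM in S222A uninduced, 1230 ± 107 CPM in WT induced and 1209 ± 83.2 CPM in WT uninduced libraries.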
